A study of Mus musculus with 64 samples.

Results

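The transcripts of 9 cytokine genes of the IL-6, IL-10 and IL-12 families were followed in murine bone marrow-derived macrophages (BMMs) across 16 groups of genotype, time, ligand and activation. The genes are Il6, Il10, Il12a, Il12b, Il23a, Il27, Ebi3, Osm and Lif. They were chosen by name from the 55487 genes counted and not by a rule on their values, though earlier results of these data were known. All 9 were among the 14537 genes that passed the filter on low counts. For Il12a, Il23a, Il12b, Il6 and Lif this pass rested on the activated libraries, so it is not independent of their rise with activation.

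BMMs were grown for 6 days in medium conditioned by L929 fibroblasts from the marrow of 4 Ahr+/+ and 4 Ahr-/- mice of 8 to 12 weeks of age. The Ahr+/+ mice were female C57BL/6JRj animals. The Ahr-/- mice, knockouts of the aryl hydrocarbon receptor (AhR) on C57BL/6, had been crossed back to that strain, and the sources do not give their sex. Cells were used where more than 80% carried CD11b and F4/80, surface proteins of macrophages. They were kept for 6 h with 0.01% DMSO as vehicle, with 1 µM benzo[a]pyrene (BaP), a polycyclic aromatic hydrocarbon and AhR ligand of high affinity, or with 10 µM indole-3-carbinol (I3C), a plant indole of low affinity. Heat-killed Salmonella Enteritidis (hk S.E.), a mixture of microbial patterns, was then added at 10000000 per ml for 3 h or 20 h. The unactivated groups of each genotype and time had DMSO and no hk S.E. Each of the 16 groups held 4 libraries, and the sources do not say which library came from which mouse, so the p-values measure the spread between these libraries.

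The 3 families are messengers by which a macrophage that has met microbes instructs other cells. IL-6, oncostatin M (Osm) and leukaemia inhibitory factor (Lif) signal through receptor complexes that contain gp130. IL-10 restrains macrophage activation. The IL-12 family cytokines are pairs of separately encoded chains: Il12b encodes the p40 chain, which pairs with the p35 chain (Il12a) to form IL-12 and with the p19 chain (Il23a) to form IL-23, and Ebi3 encodes the partner of the p28 chain (Il27) in IL-27. Once bound by a ligand, AhR moves to the nucleus and binds a short DNA core, the AHRE I, and it is known to interact with the NF-kB pathway that drives many cytokine genes.

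Libraries held 12152496 to 50644601 read pairs on genes, with a median of 24499165, except for unactivated Ahr+/+ replicate 4 at 20 h with 233047331. All 8 macrophage markers examined were expressed, and their summed level was 18610 to 35730 CPM over the 64 libraries. CPM are counts scaled to the library total after its adjustment by TMM scaling. The sums of the lists for other cells were at most 2.63 CPM for dendritic cells, 2.80 CPM for T and NK cells, 7.88 CPM for fibroblasts, 1.13 CPM for B cells, 0.371 CPM for mast cells and basophils and 61.8 CPM for neutrophils and their progenitors. Counts cover all exons of Ahr and therefore do not test the deletion: Ahr stood at 24.9 ± 2.87 CPM in activated Ahr-/- BMMs with DMSO at 20 h and at 13.03 ± 1.29 CPM in Ahr+/+ BMMs (SD, n = 4 each). Ahrr, the AhR repressor and a textbook AhR target, separated the genotypes, with 17.2 to 20.7 CPM in the 4 BaP libraries of Ahr+/+ BMMs at 20 h and 0.656 to 1.18 CPM in those of Ahr-/- BMMs. Library identifiers fall into series. All 16 Ahr-/- libraries at 20 h belong to a series that none of the 12 activated Ahr+/+ libraries at 20 h belongs to, so in those comparisons the series and the genotype cannot be told apart.

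On GRCm38, Il6 lies at chr5:30013114-30019981 (+), Il10 at chr1:131019845-131024974 (+), Il12a at chr3:68690644-68698547 (+), Il12b at chr11:44400063-44414033 (+) and Il23a at chr10:128296139-128298752 (-). Il27 lies at chr7:126589010-126594941 (-), Ebi3 at chr17:55952640-55957022 (+), Osm at chr11:4236420-4241026 (+) and Lif, downstream of Osm, at chr11:4257557-4272514 (+). All 9 are protein-coding, and reads were counted over the exons of each with strand. Il27 overlaps Apobr and Ebi3 overlaps Gm16712, in both cases a gene on the other strand.

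Upstream sequence from RefSeq (GRCm38.p6) was at hand for 5 of the 9 genes, Il6, Il12a with 2 start sites, Il12b, Ebi3 and Lif, and was not used here for Il10, Il23a, Il27 and Osm. The 250 bases before the start site were searched on both strands for the AHRE I core GCGTG, the AP-1 core TGAGTCA and the TATA box TATAAA. The letters GGAAA and TGACG, which are only parts of an NF-kB site and of a CRE, were searched too. Il6 and Il12b are shown as the genes with 3 GGAAA matches, and Il12a and Lif as the genes whose window held an AHRE I core, the letters AhR binds. Capitals mark the NF-kB core (TTTCC where it lies on the other strand) and the AHRE I core (CACGC on the other strand), each printed 5′ to 3′ on the strand of the gene.
Il6, chr5:30012864-30013113 (+): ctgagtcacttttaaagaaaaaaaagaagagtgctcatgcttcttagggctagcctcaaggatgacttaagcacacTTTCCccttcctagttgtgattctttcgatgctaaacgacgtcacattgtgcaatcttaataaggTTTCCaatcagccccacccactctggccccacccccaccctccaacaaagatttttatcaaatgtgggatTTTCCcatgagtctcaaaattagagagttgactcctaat
Il12b, chr11:44399813-44400062 (+): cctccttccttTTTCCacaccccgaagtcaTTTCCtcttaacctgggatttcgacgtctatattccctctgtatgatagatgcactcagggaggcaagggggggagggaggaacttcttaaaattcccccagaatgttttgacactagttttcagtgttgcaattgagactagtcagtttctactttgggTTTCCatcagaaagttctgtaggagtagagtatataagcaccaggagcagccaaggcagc
Lif, chr11:4257318-4257567 (+): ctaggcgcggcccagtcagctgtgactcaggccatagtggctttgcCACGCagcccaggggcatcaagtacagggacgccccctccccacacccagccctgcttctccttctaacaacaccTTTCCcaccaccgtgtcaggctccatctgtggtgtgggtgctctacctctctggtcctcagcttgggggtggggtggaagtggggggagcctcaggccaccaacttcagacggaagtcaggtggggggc
Il12a, second start site, chr3:68691174-68691423 (+): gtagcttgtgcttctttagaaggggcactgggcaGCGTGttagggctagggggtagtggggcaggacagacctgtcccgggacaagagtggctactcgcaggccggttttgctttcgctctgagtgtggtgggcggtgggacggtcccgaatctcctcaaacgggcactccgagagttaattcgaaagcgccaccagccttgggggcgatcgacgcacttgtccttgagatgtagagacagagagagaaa
Il6 and Il12b held 3 GGAAA matches each, Lif and Ebi3 held 1 each, and the Il12a windows held none. Il6 and Lif also held 1 AP-1 core each, and Il6 a TGACG match. Matches in these windows did not overlap. Of the 32851 RefSeq windows of this length, 55.6% held GGAAA, 28.2% an AHRE I core, 17.8% TGACG, 12.4% a TATA box and 4.46% an AP-1 core. A match is therefore a description of the letters and not a binding site.

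Activation with hk S.E. was compared with no activation in DMSO-treated BMMs. Of these cytokines 8 rose at 3 h in each genotype and all 9 rose at 20 h, and Osm was the exception at 3 h. The test was edgeR's quasi-likelihood test with an adjusted p threshold of 0.01. In Ahr+/+ BMMs 8 of 9 were higher at 3 h, where 24.2% of all genes tested were, and 9 of 9 at 20 h against 29.9%. In Ahr-/- BMMs 8 of 9 were higher at 3 h against 25.5% of all genes, and 9 of 9 at 20 h against 28.3%. Il12a, Il23a, Il12b, Il6 and Lif passed the filter through the activated libraries, so their part in these counts was largely set beforehand. Of the others, Il10, Il27 and Ebi3 were higher at both times in each genotype, and Osm at 20 h only. For a median over the 9, genes that had no count in unactivated cells were placed at their lower bound. The median log2 fold change was 4.99 and 5.74 in Ahr+/+ BMMs at 3 h and 20 h and 6.34 and 5.06 in Ahr-/- BMMs. All but the last of these are the lower bound of Il23a. It follows the depth of the unactivated libraries, so their order is not an order of responses. By edgeR's estimates the medians of the 9 were 7.8595 and 6.1551 in Ahr+/+ BMMs and 9.0035 and 5.2604 in Ahr-/- BMMs. Those at 3 h are the estimates of Il23a, which had no count without activation. The medians of edgeR's estimates over all genes were -0.10, 0.00, -0.08 and 0.02. The summed level of the 6 neutrophil and progenitor markers moved with activation at 3 h, from 2.18 to 9.64 CPM without activation to 25.1 to 61.8 CPM with it in Ahr+/+ BMMs, and from 4.25 to 7.22 CPM to 29.2 to 35.01 CPM in Ahr-/- BMMs. Ngp and Camp, granule genes of neutrophils, were the 2 of the 6 that were tested, and both rose at 3 h in each genotype. Ngp made most of the sum in Ahr+/+ BMMs at 3 h, with means of 6.24 and 39.04 CPM without and with activation. Camp had means of 0.419 and 4.19 CPM there. At 20 h Camp was higher with activation in each genotype (log2 2.32 and 2.14). Ngp was then lower in Ahr-/- BMMs (-1.67) and not called in Ahr+/+ BMMs (-0.72). At 20 h the sum was 2.77 to 7.63 CPM without and 2.52 to 6.73 CPM with activation in Ahr+/+ BMMs, and 3.901 to 17.2 CPM and 2.87 to 6.86 CPM in Ahr-/- BMMs. The dendritic cell sum moved in Ahr+/+ BMMs from 0.0474 to 0.345 CPM to 0.679 to 1.04 CPM at 3 h and from 0.220 to 0.523 CPM to 0.859 to 1.85 CPM at 20 h. The part of these cells in the results was not tested.

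**Figure D1:**
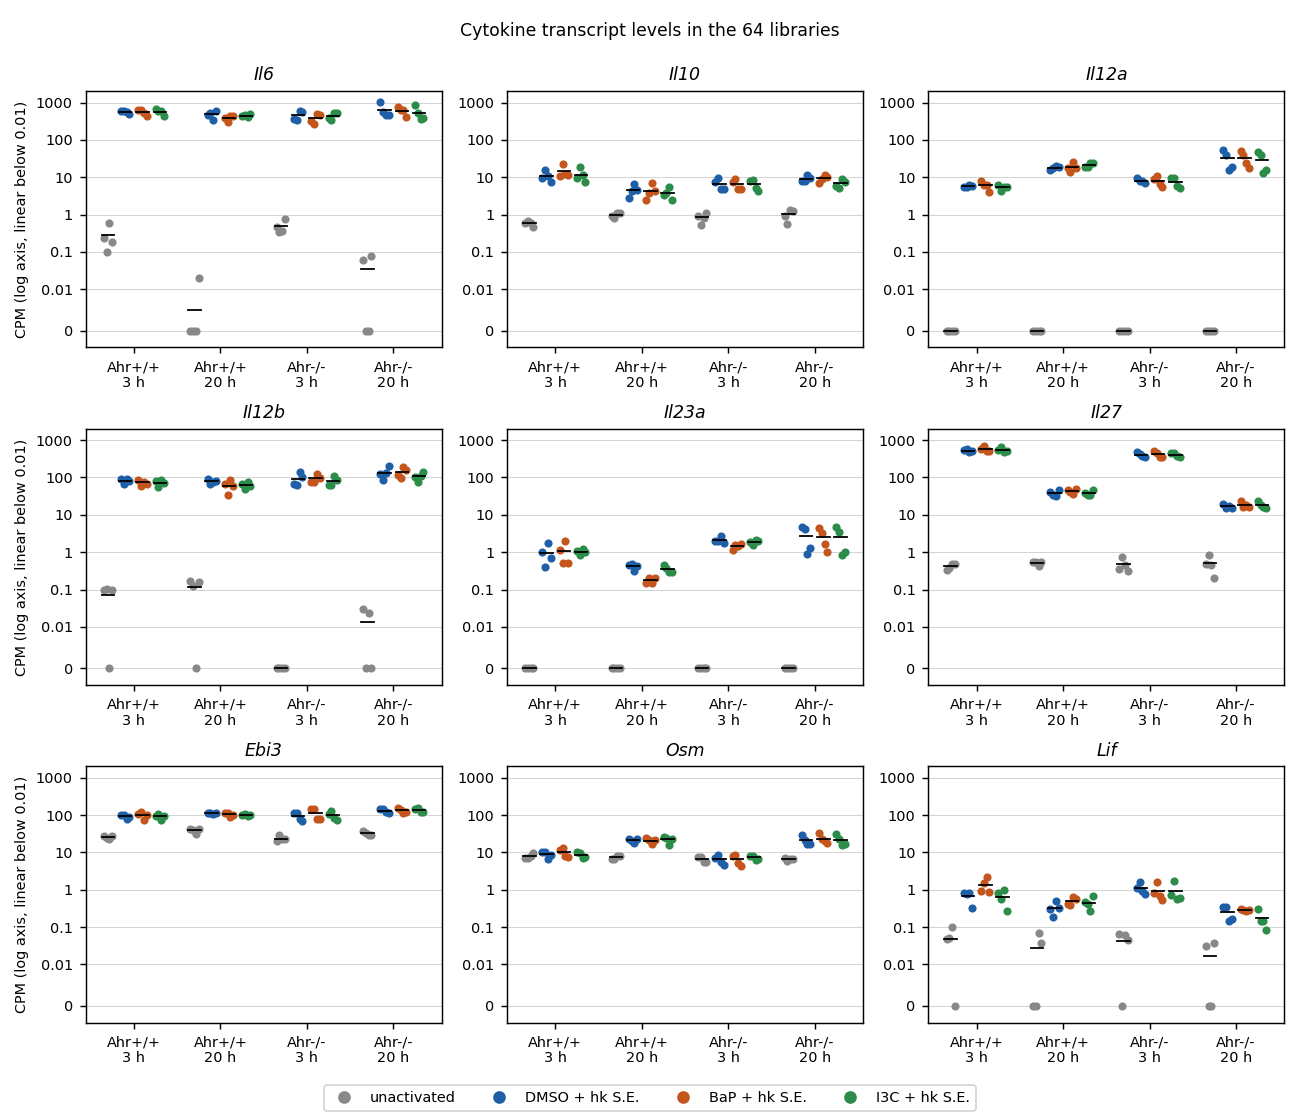
Each point is a library, with CPM of 1 gene a panel on a log axis that is linear below 0.01, the 16 groups along the x axis in blocks of genotype and time, and bars at the group means (n = 4). Grey unactivated points of Il12a and Il23a all lie at 0, Il27 at 20 h lies about an order of magnitude below its 3 h level, and blue, orange and green points of DMSO, BaP and I3C overlap in nearly every block.

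Il6 encodes a pleiotropic cytokine of the acute phase response. At 3 h it stood at 0.244, 0.1004, 0.592 and 0.190 CPM in the 4 unactivated Ahr+/+ libraries and at 599, 607, 567 and 492 CPM with hk S.E. At 20 h the unactivated Ahr+/+ libraries held 6 counts in all, every one of them in the deepest library, and the activated libraries stood at 455, 540, 332 and 595 CPM. The activated libraries lay far above the unactivated ones at both times. Il6 rose by 11.12 ± 0.41 on the log2 scale (adjusted p = 8.83e-31, ± SE) at 3 h in Ahr+/+ BMMs and by 9.96 ± 0.38 (adjusted p = 3.56e-30) in Ahr-/- BMMs. At 20 h the ratio rests on 6 counts in the unactivated libraries of each genotype.

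Osm, made by macrophages and acting through gp130, behaved differently at the early time. Its unactivated Ahr+/+ libraries at 3 h held 7.11, 6.88, 8.14 and 9.34 CPM and the activated ones 9.98, 9.95, 6.65 and 8.67 CPM, so the groups overlapped. The log2 fold change was 0.17 ± 0.22 (adjusted p = 0.513) in Ahr+/+ and 0.00 ± 0.22 (adjusted p = 0.990) in Ahr-/- BMMs. At 20 h the activated libraries lay at 22.9, 20.4, 17.6 and 23.5 CPM against 6.73, 6.85, 7.95 and 8.04 CPM, with no overlap. Osm rose by then by 1.51 ± 0.21 on the log2 scale (adjusted p = 5.67e-09) in Ahr+/+ and by 1.67 ± 0.21 (adjusted p = 6.16e-10) in Ahr-/- BMMs. The difference between the response at 20 h and that at 3 h was itself called, at 1.34 ± 0.30 (adjusted p = 0.000125) in Ahr+/+ and 1.67 ± 0.30 (adjusted p = 4.79e-06) in Ahr-/- BMMs. In that test of time by activation, 47.8% and 44.7% of all genes were called in the 2 genotypes, and 4 and 3 of the members.

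Lif, the neighbour of Osm on chromosome 11, was rare. Activated Ahr+/+ libraries at 3 h held 12, 14, 12 and 5 counts, or 0.844, 0.792, 0.831 and 0.323 CPM, and the unactivated ones 1, 2, 2 and 0 counts. The mean CPM was 14.1-fold higher with activation at 3 h and 12.25-fold higher at 20 h in Ahr+/+ BMMs, and 26.3-fold higher at 3 h in Ahr-/- BMMs. With 3 counts in unactivated Ahr-/- BMMs at 20 h the ratio of pooled levels was 11.4, with a 95% counting interval of 3.57 to 57.9. All 4 increases were called.

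Il10 was already present before activation. Unactivated Ahr+/+ libraries at 3 h held 0.584, 0.678, 0.592 and 0.474 CPM, and the activated ones 9.70, 16.1, 10.7 and 7.24 CPM, a log2 difference of 4.20 ± 0.37 (adjusted p = 4.56e-15). At 20 h Ahr+/+ cells went from between 0.817 and 1.13 CPM to between 2.83 and 6.63 CPM, 2.196 ± 0.318 on the log2 scale (adjusted p = 2.27e-08). The groups did not overlap at either time. In Ahr+/+ BMMs the response at 20 h was smaller than that at 3 h, with a log2 difference of -2.01 ± 0.49 (adjusted p = 0.000389). In Ahr-/- BMMs the difference was 0.08 ± 0.48 (adjusted p = 0.908), with responses of 3.01 ± 0.34 and 3.09 ± 0.32. Whether these 2 differences differ was not tested.

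Il12a and Il23a, which encode the chains specific to IL-12 and to IL-23, had no count in any of the 16 unactivated libraries. With hk S.E., Il12a reached 5.55, 5.54, 6.16 and 5.76 CPM at 3 h and 15.8, 18.0, 19.7 and 19.1 CPM at 20 h in Ahr+/+ BMMs. Set against a floor of 3 counts over the unactivated group, Il12a was at least 195-fold higher at 3 h and at least 2368-fold higher at 20 h in Ahr+/+ BMMs, and at least 305-fold and 1453-fold higher in Ahr-/- BMMs. Il23a stayed low, at 0.984, 0.396, 1.80 and 0.711 CPM at 3 h in Ahr+/+ BMMs, and was at least 31.8-fold higher at 3 h and 53.3-fold at 20 h, and at least 81.2-fold and 121-fold in Ahr-/- BMMs. The bounds follow the depth of the unactivated libraries and cover counting error only, so their order is not an order of responses.

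Il12b, the shared p40 chain, held 8 counts in the 4 unactivated Ahr+/+ libraries at 3 h and 55 at 20 h, none at 3 h in Ahr-/- BMMs and 2 at 20 h. Activated Ahr+/+ libraries held 90.3, 67.5, 90.6 and 80.5 CPM at 3 h and 89.2, 67.3, 77.5 and 82.9 CPM at 20 h. The mean CPM was 1124-fold higher with activation at 3 h and 696-fold higher at 20 h in Ahr+/+ BMMs. In Ahr-/- BMMs Il12b was at least 3578-fold higher with activation than without it at 3 h. At 20 h the ratio of pooled levels was 10610, with a 95% counting interval of 2936 to 87600.

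Il27 and Ebi3, the chains of IL-27, differed in their starting level. Il27 went from 0.341, 0.376, 0.493 and 0.474 CPM to 539, 580, 472 and 510 CPM at 3 h in Ahr+/+ BMMs, a log2 difference of 10.29 ± 0.25 (adjusted p = 7.27e-39). Ebi3 went from 27.2, 24.4, 23.2 and 28.0 CPM to 102, 99.5, 77.3 and 88.0 CPM, a log2 difference of 1.83 ± 0.18 (adjusted p = 1.70e-13). Of the 8 members called at 3 h, Ebi3 had the smallest fold change in each genotype. The log2 changes at 3 h in Ahr-/- BMMs were 9.73 ± 0.24 for Il27 and 2.01 ± 0.18 for Ebi3.

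The 20 h libraries were set against the 3 h libraries of activated, DMSO-treated BMMs to separate early from late transcripts. In Ahr+/+ BMMs Il12a and Osm rose and Il27 and Il10 fell, 4 of 9 members where 59.5% of all genes were called. In Ahr-/- BMMs Il12a and Osm rose and Il27 and Lif fell, 4 of 9 where 56.0% of all genes were called. For the Ahr-/- comparison the series of library identifiers follows the time point, and the 2 cannot be told apart. The neutrophil and progenitor marker sum moved with time in activated cells, from 25.1 to 61.8 CPM at 3 h to 2.52 to 6.73 CPM at 20 h in Ahr+/+ BMMs and from 29.2 to 35.01 CPM to 2.87 to 6.86 CPM in Ahr-/- BMMs, and its part in these results was not tested. Of the tested markers in that sum, Ngp was called lower in each genotype and Camp in Ahr+/+ BMMs only. In bulk RNA, fewer cells that make a transcript and less transcript per cell cannot be told apart.

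Il27 showed the widest fall. Its 4 activated Ahr+/+ libraries went from between 472 and 580 CPM at 3 h to 41.7, 33.1, 31.8 and 46.8 CPM at 20 h, and the Ahr-/- libraries from 469, 413, 378 and 345 CPM to 19.9, 15.1, 16.9 and 15.7 CPM. The log2 fold change was -3.77 ± 0.17 in Ahr+/+ BMMs (adjusted p = 1.36e-26), and the log2 fold change in Ahr-/- BMMs was -4.57 ± 0.18 (adjusted p = 2.83e-29). Even so, Il27 at 20 h remained above its unactivated level of 0.426 to 0.560 CPM in Ahr+/+ BMMs, with a log2 difference of 6.16 ± 0.22.

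Il12a, in contrast, rose 3.16-fold in Ahr+/+ BMMs (log2 1.66 ± 0.35, adjusted p = 5.09e-05) and 3.94-fold in Ahr-/- BMMs (log2 1.98 ± 0.33, adjusted p = 1.81e-06). Osm rose 2.39-fold and 3.23-fold (adjusted p = 7.19e-07 and 8.71e-10). Il10 fell in Ahr+/+ BMMs from between 7.24 and 16.1 CPM to 2.83, 4.33, 6.63 and 4.64 CPM, a log2 change of -1.24 ± 0.29 (adjusted p = 0.000167). Il10 in Ahr-/- BMMs stood at 7.66, 9.70, 4.72 and 4.79 CPM at 3 h and at 7.95, 8.02, 11.3 and 9.33 CPM at 20 h, and the log2 change of 0.44 was not called, with a 95% interval of -0.13 to 1.01.

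Lif fell from 3 h to 20 h with a log2 change of -2.19 ± 0.42 in Ahr-/- BMMs (adjusted p = 1.04e-05) and stood at -1.05 ± 0.44 in Ahr+/+ BMMs, where it was not called (adjusted p = 0.0326). In Ahr+/+ BMMs the change became -1.37 (adjusted p = 0.00757) without DMSO replicate 4 at 3 h, whose 0.323 CPM lay apart from the other 3 libraries at 0.792 to 0.844 CPM. Il6, Il12b, Ebi3 and Il23a were not called in either genotype. Their 95% intervals were -0.71 to 0.23 for Il6, -0.54 to 0.43 for Il12b, -0.05 to 0.63 for Ebi3 and -2.32 to -0.06 for Il23a in Ahr+/+ BMMs. For Ahr-/- BMMs, where libraries of the same replicate number deviated together at both times, a fit with the replicate number as a block called Il12b at 0.55 (adjusted p = 0.000140) and Ebi3 at 0.49 (adjusted p = 2.41e-05).

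Without activation Il6 was the only member called between the times, at a log2 change of -3.72 ± 0.90 (adjusted p = 0.00306) in Ahr+/+ and -3.39 ± 0.79 (adjusted p = 0.00191) in Ahr-/- BMMs, where 6.07% and 6.98% of all genes were called. These values rest on 25 and 6 counts at 3 h and 20 h over the 4 Ahr+/+ libraries and on 53 and 6 over the 4 Ahr-/- libraries. Without the deepest library, unactivated Ahr+/+ replicate 4 at 20 h, the call was lost, at an adjusted p of 0.0288, and it was also lost without unactivated Ahr+/+ replicate 3 at 3 h (adjusted p = 0.0486). The Ahr-/- call was lost without replicate 4 at 3 h (adjusted p = 0.0118) or replicate 3 at 20 h (adjusted p = 0.0131).

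Levels were compared between genes per kilobase of exon (RPKM). In unactivated Ahr+/+ BMMs at 3 h Ebi3 led with 22.3 ± 1.96 RPKM (SD, n = 4), followed by Osm with 3.46 ± 0.50 RPKM and Il10 with 0.444 ± 0.064 RPKM. After 3 h of hk S.E. the order was Il27 (514 ± 44.9 RPKM), Il6 (233 ± 21.6), Ebi3 (79.5 ± 9.81), Il12b (41.8 ± 5.53), Il10 (8.36 ± 2.86), Osm (3.88 ± 0.69), Il12a (3.38 ± 0.17), Il23a (0.433 ± 0.268) and Lif (0.160 ± 0.058). Only Osm with Il12a and Il23a with Lif overlapped among neighbours in that order. At 20 h Il6 led with 198 ± 47.2 RPKM, and Il27, at 37.6 ± 7.03 RPKM, had dropped to overlap with Il12b at 40.3 ± 4.72 RPKM. Il12a at 10.7 ± 1.00 RPKM overlapped with Osm at 9.28 ± 1.18 RPKM.

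Ratios of genes within a library are free of library scaling. Il12b/Il12a, Il12b/Il23a and Ebi3/Il27 are ratios of paired chains, and Il10/Il12b is not. These 4 were compared in 48 exact permutation tests of 4 libraries against 4 (2-sided). The smallest p this design allows is 0.0286, which 8 tests reached, and the smallest adjusted p over the 48 was 0.171, so none passed after correction. Among the 8 was Il10/Il12b at 20 h against 3 h in Ahr+/+ BMMs, with a log2 difference of -1.20 and no overlap. The values are given as descriptions with that limit.

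**Figure D2:**
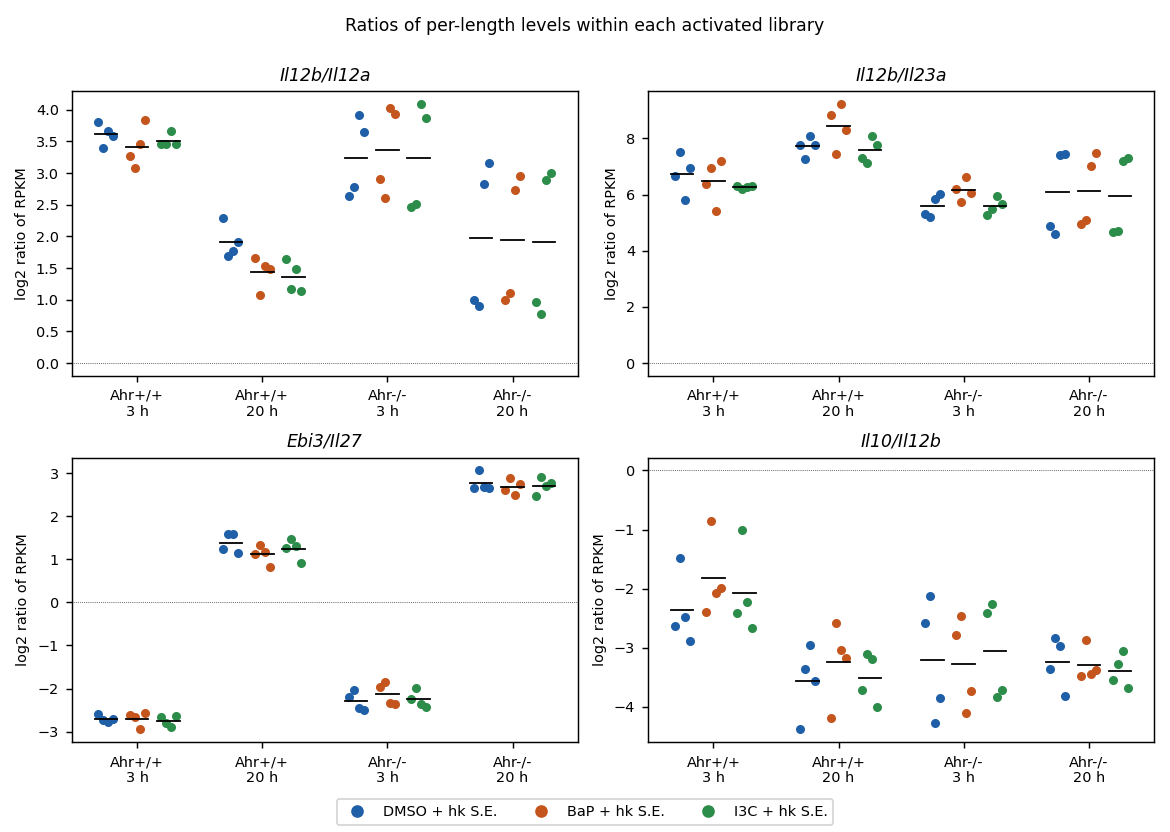
Points are log2 ratios of RPKM within each activated library, by genotype and time along the x axis and by treatment in colour, with bars at the means of 4 libraries and a dotted line at equal levels. The Ebi3/Il27 ratio lies below 0 in all libraries at 3 h and above 0 in all at 20 h, and Il12b/Il12a and Il12b/Il23a in Ahr-/- BMMs at 20 h split into replicates 1 and 2 below and replicates 3 and 4 above.

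The Il12b/Il12a ratio, p40 over p35, was lower at 20 h in Ahr+/+ BMMs. Its log2 value was 3.81, 3.39, 3.66 and 3.59 at 3 h and 2.28, 1.69, 1.77 and 1.91 at 20 h, so p40 transcript exceeded p35 transcript 12.2-fold and then 3.76-fold. The groups did not overlap (exact permutation p = 0.0286, adjusted p = 0.171). Ahr-/- libraries held log2 ratios of 2.64, 2.78, 3.91 and 3.65 at 3 h. At 20 h they held 0.999, 0.894, 2.83 and 3.17, overlapping with the early ones (exact permutation p = 0.171). Between libraries of the same replicate number the ratio was lower at 20 h in 4 of 4 pairs, by a mean log2 difference of -1.27 (exact sign-flip permutation p = 0.125, the smallest that 4 pairs allow).

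The Ebi3/Il27 ratio had opposite signs at the time points. Its log2 value was between -2.79 and -2.58 at 3 h and between 1.14 and 1.59 at 20 h in Ahr+/+ BMMs, a difference of 4.09, and between -2.49 and -2.04 and between 2.64 and 3.06 in Ahr-/- BMMs, a difference of 5.06. Il27 transcript thus exceeded Ebi3 transcript at 3 h and the reverse held at 20 h, in every library. Ahr-/- libraries lay above Ahr+/+ libraries by 0.40 at 3 h and by 1.37 at 20 h, without overlap (exact permutation p = 0.0286 each, adjusted p = 0.171).

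Ahr-/- BMMs were compared with Ahr+/+ BMMs without ligand. The genotypes differed most at 20 h of activation, where Il23a and Il10 were higher and Il27 was lower in Ahr-/- BMMs, 3 of 9 members where 12.5% of all genes were called. At 3 h of activation 0 of 9 members were called by edgeR, where 2.83% of all genes were, and without activation 0 of 9 at 3 h and 0 of 9 at 20 h, where 1.21% and 0.702% of all genes were. Il12a and Il23a had no count without activation, so 7 members could differ there. An unadjusted p under 0.05 was reached by 3 members at 3 h of activation and by 0 and 1 without activation. DESeq2 also called no member in these 3 comparisons.

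Markers of macrophages and of dendritic cells moved with the genotype in the same libraries at 20 h. Of the 8 macrophage markers 2 were lower in Ahr-/- BMMs: Fcgr1, a receptor for antibodies, stood at 272 to 418 CPM against 719 to 873 CPM, and Cd68, a lysosomal glycoprotein, at 573 to 677 CPM against 866 to 1114 CPM. The sum of the 8 was 20150 to 32150 CPM in Ahr-/- and 18830 to 22840 CPM in Ahr+/+ BMMs. Of the 6 dendritic cell markers 2 were tested and both were lower, Flt3 at 0.0317 to 0.258 CPM against 0.411 to 0.852 CPM and Zbtb46 at 0 to 0.184 CPM against 0.411 to 0.959 CPM. The sum of the 6 was 0.0750 to 0.442 CPM against 0.859 to 1.85 CPM, with Cd209a at 0 in every one of these libraries. The 4 fibroblast markers summed to 1.199 to 3.77 CPM against 1.51 to 2.52 CPM, with no call among the 3 tested and Dcn at 0.773 to 1.01 CPM against 0.849 to 2.17 CPM. The part of these cells in the genotype results was not tested.

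Il23a stood at 0.449, 0.486, 0.314 and 0.426 CPM in activated Ahr+/+ BMMs at 20 h and at 4.72, 4.05, 0.883 and 1.29 CPM in Ahr-/- BMMs. The groups did not overlap, as held for 20.4% of all genes in this comparison. The log2 difference was 2.69 ± 0.50, or 6.46-fold (adjusted p = 9.85e-05), and it was called with each of the 8 libraries left out in turn, at 2.28 to 2.98. Every such fit kept a library of the high Ahr-/- pair at 4.72 and 4.05 CPM, so dependence on that pair was not tested. Of the 7 other alternatives 5 kept the call. It was lost with only the groups compared in the fit (2.72, adjusted p = 0.0122) and with the series of library identifiers as a further term (adjusted p = 1.00), and limma on the log2 values called a smaller difference of 1.00 (adjusted p = 0.000213). At 3 h Il23a stood at 1.93, 1.97, 2.74 and 1.79 CPM in Ahr-/- BMMs against 0.396 to 1.80 CPM in Ahr+/+ BMMs, a log2 difference of 1.14 that was not called (95% interval 0.13 to 2.16, adjusted p = 0.196).

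Il27 was lower in Ahr-/- BMMs at 20 h, with 15.1 to 19.9 CPM against 31.8 to 46.8 CPM and no overlap. The log2 difference was -1.18 ± 0.16 (adjusted p = 1.07e-07), or 0.440-fold, and was called with each library left out, at -1.27 to -1.07. At 3 h the groups did not overlap either, at 345 to 469 CPM against 472 to 580 CPM, as for 12.1% of all genes, and the log2 difference of -0.39 was not called (95% interval -0.69 to -0.08, adjusted p = 0.125).

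Il10 lay at 7.95, 8.02, 11.3 and 9.33 CPM in Ahr-/- BMMs and at 2.83, 4.33, 6.63 and 4.64 CPM in Ahr+/+ BMMs at 20 h, without overlap. The log2 difference of 0.98 ± 0.28 was close to the threshold (adjusted p = 0.00918), and the call held in 1 of the 8 fits that left out a library, the fit without Ahr+/+ replicate 3, with adjusted p from 0.00357 to 0.0575. At 3 h the direction was the opposite, -0.71 ± 0.29, and not called (adjusted p = 0.149). Whether the 2 differences differ was not tested.

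Of the other members at 20 h, Il12b stood at 123, 86.1, 133 and 198 CPM in Ahr-/- BMMs against 67.3 to 89.2 CPM (log2 0.77, 95% interval 0.29 to 1.25, adjusted p = 0.0168). Il12a stood at 53.0, 40.0, 16.1 and 19.1 CPM against 15.8 to 19.7 CPM (log2 0.82, 95% interval 0.18 to 1.45, adjusted p = 0.0601). Both genes overlapped between the genotypes and neither was called, but without Ahr-/- replicate 2 Il12b was called at 0.93 (adjusted p = 0.00623). Il6, Ebi3, Osm and Lif had intervals of -0.08 to 0.85, -0.13 to 0.55, -0.41 to 0.39 and -1.37 to 0.46. With the series of library identifiers as a further term, which only unactivated libraries inform in this comparison, no member was called (Il27 -1.05, adjusted p = 0.0545, and Il10 1.01, adjusted p = 0.180). For Il23a, which had no count in those libraries, the term could not be estimated.

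**Figure D3:**
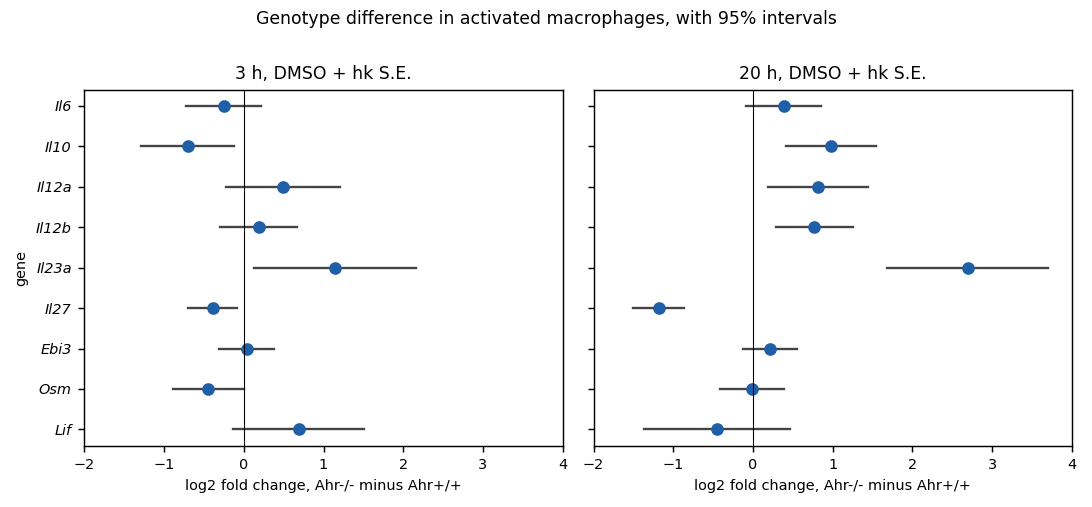
Points are log2 fold changes of Ahr-/- minus Ahr+/+ BMMs with DMSO and hk S.E. for each gene, at 3 h on the left and 20 h on the right, with lines for the 95% interval (n = 4 libraries a group). At 20 h Il23a lies farthest to the right at 2.69 and Il27 to the left at -1.18, while at 3 h all 9 points lie between -0.71 and 1.14.

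The response to activation was also compared between the genotypes. By edgeR 0 of 9 members were called at either time, where 0.0138% of all genes were called at 3 h and 4.41% at 20 h, and 2 members reached an unadjusted p under 0.05 at each time. The Il12b difference at 20 h was 3.74 ± 1.14 on the log2 scale (adjusted p = 0.0273) and rests on 55 counts in unactivated Ahr+/+ and 2 in unactivated Ahr-/- libraries, 46 of the 55 in the deepest library. DESeq2 called it (3.87, adjusted p = 0.00336), as did the fit with the replicate number as a block (3.89, adjusted p = 0.000592), and without the deepest library the adjusted p was 0.212. For Il12a and Il23a no difference of folds could be formed, since their unactivated libraries held no count.

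Within the activated Ahr-/- BMMs at 20 h the replicates fell apart in the same way with each treatment. Il12a stood at 53.0, 40.0, 16.1 and 19.1 CPM in replicates 1 to 4 with DMSO, at 50.4, 38.6, 24.7 and 17.6 CPM with BaP and at 46.1, 38.6, 12.8 and 15.3 CPM with I3C. Il23a stood at 4.72, 4.05, 0.883 and 1.29 CPM with DMSO, at 4.31, 3.20, 1.65 and 1.01 CPM with BaP and at 4.69, 3.37, 0.847 and 1.03 CPM with I3C. Replicates 1 and 2 were thus the high ones for both genes in all 3 groups, and replicates 3 and 4 held Il12a at 12.8 to 24.7 CPM beside 13.7 to 25.7 CPM in the 12 activated Ahr+/+ libraries at 20 h. Ebi3, with 142, 143, 123 and 111 CPM with DMSO, was likewise higher in replicates 1 and 2 in all 3 groups. Il12b went the other way with each treatment. Replicates 1 and 2 held 123 and 86.1 CPM with DMSO, 117 and 96.2 CPM with BaP and 104 and 76.6 CPM with I3C, below replicates 3 and 4 with 133 and 198 CPM, 189 and 158 CPM, and 109 and 142 CPM.

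At 3 h the same replicate numbers of Ahr-/- BMMs differed in Il6, with 373, 345, 610 and 571 CPM with DMSO, in Il12b, with 68.7, 63.6, 137 and 104 CPM, in Ebi3, with 115, 114, 77.9 and 69.3 CPM, and in Il10, with 7.66, 9.70, 4.72 and 4.79 CPM. Here replicates 3 and 4 were high for Il6 and Il12b and low for Ebi3 and Il10. All 16 pairs of an Ahr-/- ligand library and the DMSO library of the same number had a correlation of their deviations from the group means over all genes between 0.25 and 0.64. These splits were noticed in the values and were not tested.

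Each AhR ligand was compared with DMSO in activated BMMs of each genotype at each time. No cytokine gene of the 9 was called in any of the 8 comparisons, 0 of 72 tests by edgeR, and 1 of the 72 reached an unadjusted p under 0.05. BaP changed 0.0482% of all genes at 3 h and 0.234% at 20 h in Ahr+/+ BMMs. For I3C the shares were 0.131% and 0.509%. Without the receptor they were 0.0275% and 0.0138% with BaP and 0.0206% and 0.206% with I3C. DESeq2 likewise called none of the 9. The ligands were given at different doses, and their values stand side by side without a comparison between them.

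Il6 stood at 617, 620, 537 and 427 CPM with BaP and at 661, 599, 600 and 442 CPM with I3C at 3 h in Ahr+/+ BMMs, beside 492 to 607 CPM with DMSO. All 3 groups overlapped. The log2 differences from DMSO were -0.04 (95% interval -0.51 to 0.43) with BaP and 0.02 (-0.45 to 0.49) with I3C, and at 20 h -0.31 (-0.78 to 0.16) and -0.10 (-0.56 to 0.37).

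Il10, the restraining cytokine, had 150, 221, 192 and 161 counts with BaP and 133, 288, 147 and 140 counts with I3C at 3 h in Ahr+/+ BMMs, beside 138, 285, 155 and 112 counts with DMSO. Scaled to the library these were 14.3 ± 5.39, 11.8 ± 4.71 and 10.95 ± 3.75 CPM (SD, n = 4 each). Replicate 2 was the highest in each of the 3 groups. The log2 differences were 0.37 (-0.21 to 0.94) with BaP and 0.10 (-0.47 to 0.67) with I3C. At 20 h they were -0.09 (-0.67 to 0.49) and -0.30 (-0.89 to 0.29).

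For the chains of the IL-12 family the same held. Il12b at 20 h in Ahr+/+ BMMs stood at 66.4, 33.4, 85.5 and 58.0 CPM with BaP and at 68.2, 48.2, 75.8 and 59.7 CPM with I3C, beside 89.2, 67.3, 77.5 and 82.9 CPM with DMSO, with log2 differences of -0.38 (-0.86 to 0.10) and -0.33 (-0.81 to 0.15). Il12a stood at 18.1, 13.7, 25.7 and 17.8 CPM with BaP and at 18.8, 18.4, 23.4 and 23.5 CPM with I3C, beside 15.8 to 19.7 CPM, with log2 differences of 0.05 (-0.58 to 0.68) and 0.21 (-0.42 to 0.85). The Il12b/Il12a ratio of each library combines these, and its log2 value of 1.67, 1.08, 1.53 and 1.49 with BaP and 1.65, 1.18, 1.49 and 1.14 with I3C lay below the 1.69 to 2.28 with DMSO without overlap. The differences were -0.47 and -0.55 (exact permutation p = 0.0286 each, adjusted p = 0.171), and in Ahr-/- BMMs at 20 h they were -0.02 and -0.06 with overlap. The Ahr-/- ratios with DMSO ran from 0.894 to 3.17, so a change of that size would also leave overlap there. Whether the ratio differences differ between the genotypes was not tested.

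Il23a at 20 h in Ahr+/+ BMMs had 4, 5, 5 and 9 counts with BaP, or 0.147, 0.201, 0.149 and 0.201 CPM, against 10, 13, 10 and 20 counts or 0.314 to 0.486 CPM with DMSO. The groups did not overlap, as for 9.05% of all genes in this comparison. The log2 difference was -1.22 with a 95% interval of -2.52 to 0.07 (adjusted p = 0.524), so a decrease could not be told from no change at this depth. With I3C it was 0.466, 0.372, 0.302 and 0.300 CPM, overlapping with DMSO. The other values without overlap were Il23a with BaP at 3 h in Ahr-/- BMMs, 1.15 to 1.66 CPM against 1.79 to 2.74 CPM, and Ebi3 with I3C at 20 h in Ahr+/+ BMMs, 93.6 to 106 CPM against 107 to 117 CPM, where 2.80% and 5.58% of all genes did not overlap. Their log2 differences were -0.53 (-1.47 to 0.42) and -0.15 (-0.49 to 0.18).

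Lif with BaP at 3 h in Ahr+/+ BMMs was the value with an unadjusted p under 0.05. Its libraries held 13, 15, 34 and 12 counts, or 0.954, 1.51, 2.17 and 0.856 CPM, against 12, 14, 12 and 5 counts or 0.844, 0.792, 0.831 and 0.323 CPM with DMSO. The BaP libraries lay above the DMSO libraries, as such a separation held for 3.91% of all genes. The log2 difference of 0.98 had a 95% interval of 0.15 to 1.81 and an adjusted p of 1.00. The difference at 3 h in Ahr-/- BMMs was -0.31 (-1.09 to 0.47), and the difference between the genotypes was not called (-1.29 ± 0.57, adjusted p = 1.00).

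**Figure D4:**
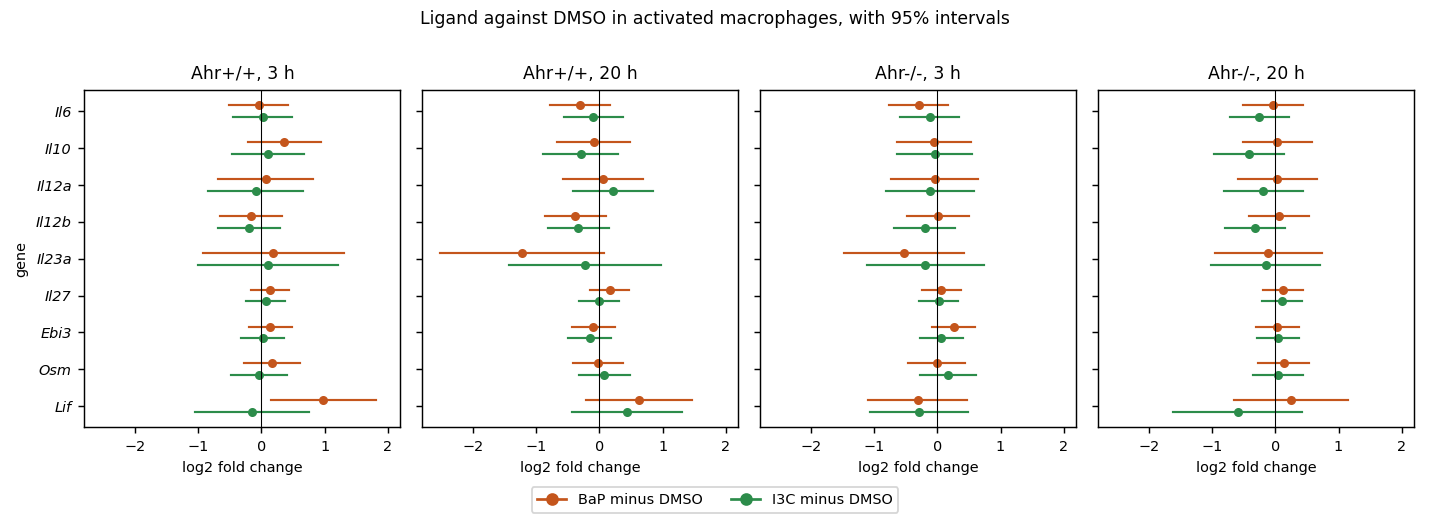
Points are log2 fold changes of BaP (orange) and I3C (green) against DMSO in activated BMMs, by genotype and time in 4 panels, with lines for the 95% interval (n = 4 libraries a group). All intervals but that of Lif with BaP at 3 h in Ahr+/+ BMMs include 0, and those of Il23a and Lif are the widest.

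Il27, Ebi3 and Osm were measured with the tightest intervals. Over the 7 members other than Il23a and Lif, all 56 intervals lay within -0.98 to 0.94 on the log2 scale, and the largest difference was 0.42 in size. In the tests of ligand by genotype 0 of 36 were called by edgeR, where 0.0138% of all genes were called for BaP at 3 h and 0% for the other 3 tests, and 1 reached an unadjusted p under 0.05, that of Lif with BaP at 3 h. In simulated data with 100 genes changed by 1 and 100 by 2 on the log2 scale, the test called 65 and 86 of them in the BaP comparison of Ahr+/+ BMMs at 20 h, and 48 and 74 in the test of BaP by genotype at 20 h.

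The receptors, signalling genes, other ligands and regulators of these families were taken from a list of 49 genes, of which 41 were tested. With activation in Ahr+/+ BMMs 31 were higher and 3 lower at 3 h, and 25 higher and 12 lower at 20 h. For Ahr-/- BMMs 32 were higher and 3 lower at 3 h, and 23 higher and 15 lower at 20 h. The share called in either direction among all genes was 56.6% and 58.6% in Ahr+/+ and 57.3% and 54.3% in Ahr-/- BMMs.

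Of the 9 receptor chains tested, 3 were higher and 3 lower at 3 h in Ahr+/+ BMMs, and 2 were higher and 6 lower at 20 h. Il6ra and Il6st (gp130), through which IL-6 acts on a cell, fell at 3 h in Ahr+/+ BMMs with log2 changes of -2.97 ± 0.14 and -2.30 ± 0.09, and Lifr, which takes up LIF together with gp130, fell with -1.32 ± 0.27. Il23r and Il12rb1, which together form the IL-23 receptor, rose with 7.31 ± 0.73 and 2.23 ± 0.41. Il10ra rose with 1.73 ± 0.09 at 3 h and was lower at 20 h with -0.59 ± 0.09. Il12rb2 and Il27ra were not called at 3 h and were lower at 20 h with -4.32 ± 0.34 and -3.89 ± 0.51. The 9 chains tested in Ahr-/- BMMs were called in the same direction as in Ahr+/+ BMMs at both times, except that Il10rb was lower at 20 h in Ahr-/- BMMs and not called in Ahr+/+ BMMs. Osmr did not pass the filter.

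**Figure D5:**
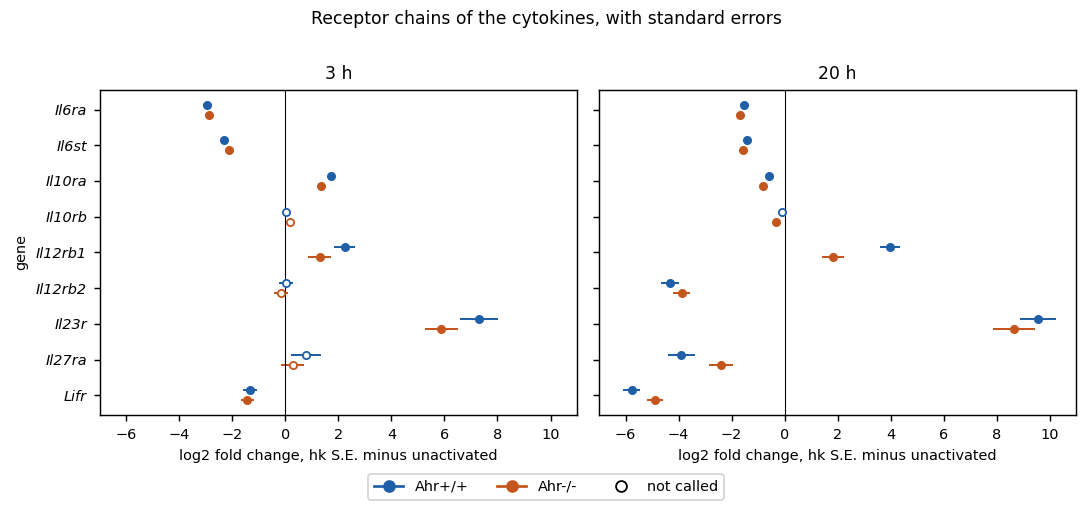
Points are log2 fold changes of hk S.E. against unactivated BMMs for 9 receptor chains in Ahr+/+ (blue) and Ahr-/- (orange) cells, at 3 h on the left and 20 h on the right, with lines for the standard error and open points for changes that were not called. Il6ra, Il6st and Lifr lie to the left of 0 at both times, Il23r and Il12rb1 to the right. The Il23r points rest on unactivated libraries near the floor, so their size is rough.

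All 8 signalling genes rose at 3 h in both genotypes. The feedback inhibitors Socs3 and Socs1 rose most, with log2 changes of 8.01 ± 0.21 and 8.47 ± 0.34 in Ahr+/+ BMMs, and the kinase Jak2 rose with 4.46 ± 0.14 and the transcription factor Stat3 with 1.77 ± 0.08. Stat4, the IL-12 signal transducer, rose by 0.97 ± 0.23. Of the other ligands Il19, an IL-10 family cytokine, and Clcf1, an IL-6 family cytokine, were tested and rose in both genotypes at both times. At 3 h in Ahr+/+ BMMs their log2 changes were 9.51 ± 0.77 and 3.96 ± 0.32. Between the times in unactivated Ahr+/+ BMMs the Il19 estimate was 0 ± 0, as for Il12a, which had no count there. The 9.51 of Il19 therefore rests on the activated libraries alone, and its size is not a measured fold. The other 7, among them Il11, Il22 and Il24, did not pass the filter.

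Between the genotypes at 20 h of activation 1 of the 41 was higher and 10 were lower in Ahr-/- BMMs, where 5.06% and 7.39% of all genes were. The 10 include the receptor chain Il12rb1 at -1.99 ± 0.33 (adjusted p = 9.27e-06) and the signalling genes Stat4 at -1.05 ± 0.22, Jak1 at -0.38 ± 0.08 and Stat3 at -0.31 ± 0.08. The other 6 that were lower and the 1 that was higher were regulators, of 22 tested.

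Across the 16 group means of log2 CPM, the 3 genes outside the list most like each member were Tarm1, Clec4e and Gm16685 for Il6 (Pearson r from 0.996 to 0.998), Irak3, Cd38 and Rasgrp1 for Il12a, U90926, Acp5 and Ttc39c for Il12b, and Plagl2, Batf2 and Peli1 for Il27. For Ebi3 they were Hip1r, Il2ra and Fcgr2b, for Il10 Upp1, Gja1 and Gm12989, for Il23a Adm, Eef1e1 and Cct2, for Osm Cars, Lars and Wdr66, and for Lif Zc3hav1, Rnf225 and Tgtp2. Between members r ranged from 0.05 for Il27 with Osm to 0.99 for Il6 with Il12b, and it was 0.97 for Il27 with Lif. Over the deviations of the 48 activated libraries from their group means, r was 0.78 for Il27 with Osm, 0.20 for Il6 with Il12b and 0.35 for Il27 with Lif. The 16 means share libraries, depth and the split between unactivated and activated cells, so these values describe that shared pattern.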

How the data were processed

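RNA-seq libraries (TruSeq stranded, paired reads) were made from 64 BMM cultures in 16 groups. The authors demultiplexed with bcl2fastq 2.19.0.316, removed adapters, aligned to mm10 with HISAT2 2.1.0 and counted read pairs over exons by strand with HTSeq 0.9.1 against GENCODE release 22. The deposited gene counts are raw. A deposited table of variance-stabilised log2 values, made by the authors with DESeq2 1.28.1, was used in an alternative only. Of each library's pairs 74.9% to 80.8% fell on genes, and the 5 rows that name no gene were left out. Positions and exon lengths came from GENCODE release 21 on the same build.

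Counts were analysed with edgeR 4.0.16 in R 4.3.3: TMM scaling, a filter at a minimum count of 10 (14537 genes kept), a quasi-likelihood fit of all libraries with 1 coefficient per group (48 residual degrees of freedom), and Benjamini-Hochberg adjustment over all genes, called below 0.01. CPM and RPKM were computed from the counts and the library totals after TMM scaling. The SE of a log2 fold change was taken as its size divided by the square root of the test's F statistic. The 95% intervals of fold changes follow from it, and both are rough where counts are very low. Ratios used RPKM with 0.5 counts added and exact permutation tests (scipy 1.17.1). For time in Ahr-/- BMMs an exact sign-flip permutation test within replicate numbers was added after seeing the data. Lower bounds use a floor of 3 counts over a group, and 95% intervals of ratios cover counting error only. Alternatives were DESeq2 1.42.0, limma 3.58.1 on the log2 values, RLE scaling, no filter, a threshold of 0.05, only the groups compared, the identifier series as a covariate, the replicate number as a block and each library left out. The steps were tested on simulated data.

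The sources do not say that a replicate number marks a mouse. Deviations of same-numbered libraries correlated above 0.1 in all 16 Ahr-/- pairs of ligand with DMSO (r 0.25 to 0.64) and in 10 of 16 such Ahr+/+ pairs (r 0.07 to 0.26). By the rule that every pair must exceed 0.1, the numbers pair the libraries in the 4 Ahr-/- ligand comparisons, I3C at 20 h in Ahr+/+ BMMs, and time and activation at 20 h in activated Ahr-/- BMMs.

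The members and lists were chosen with earlier results of these data known. Named were all 9 members, receptor, signalling and other ligand genes of the list, and for each member the 3 genes with the highest Pearson r over the 16 groups. A gene of the signalling list is not reported here by name.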

Additional observations from a re-analysis of the deposited data

Results flagged for a closer look

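Within each group of 4 libraries, the gap between the library at an end and its nearest neighbour was taken as a share of the group's range on the log2 scale. Of the 126 pairs of gene and group tested, 4 had a share above Dixon's 95% critical value, and chance gives such a share in about 1 in 20. Il10 in Ahr+/+ BMMs with BaP at 3 h was highest in replicate 2, at 22.3 CPM against at most 12.3 CPM in the others, a share of 0.848. Il12b in unactivated Ahr+/+ BMMs at 20 h had no count in replicate 3 against 0.126 to 0.174 CPM (0.872). Ebi3 was lowest in the same library, at 31.2 CPM against 40.4 to 41.5 CPM (0.908). Lif in Ahr+/+ BMMs with DMSO at 3 h was lowest in replicate 4, at 0.323 CPM against 0.792 to 0.844 CPM (0.924).

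The response to activation differed between 20 h and 3 h for 7 pairs of gene and genotype by edgeR's test of the difference. In Ahr+/+ BMMs the log2 differences were 3.48 for Il6, 1.34 for Osm, -2.01 for Il10 and -4.14 for Il27. In Ahr-/- BMMs they were 3.79 for Il6, 1.67 for Osm and -4.47 for Il27. The Il6 values rest on 6 counts at 20 h in the unactivated libraries of each genotype.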

How the results depend on the processing

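Counts of members called stayed within 1.5 times the main count in 491 alternative values and moved in 17. At 20 h without ligand, 3 members differed between the genotypes, 0 with the identifier series as a covariate and 1 with only the groups compared. For time in activated Ahr-/- BMMs the count went from 4 to 2 with the series as a covariate, as Il12a and Lif lost the call. Only unactivated libraries inform the term in this comparison. Il12a had no count in them, so for Il12a the term could not be estimated. For time without activation, the 1 member called (Il6) became 0 with limma in both genotypes, 2 in Ahr+/+ BMMs at a threshold of 0.05, and 0 in Ahr-/- BMMs with the series or with only the groups compared. Leaving out single libraries gave 0 to 2 members in Ahr+/+ and 0 to 1 in Ahr-/- BMMs. For the genotype difference of activation at 20 h, 0 became 1 with the threshold of 0.05, the replicate block, DESeq2 and limma each. The member was Il27 with limma and Il12b with the others. The cause was not tested.

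For single genes 4137 alternative values kept direction and side of the threshold, 21 gained a call and 29 lost it. None reversed, where a sign change counted only if a value had passed a test at an unadjusted p of 0.05. With the replicate block Ebi3 was also called for time in activated Ahr+/+ BMMs (0.30, adjusted p = 0.00684), where same-numbered pairs correlated at 0.080 to 0.126, not all above 0.1, though each library correlated best with its own number, a hint from the data and not from the design, and Il6 for time without activation was lost in Ahr+/+ BMMs (adjusted p = 0.0196). No ligand call arose under any alternative. Depth limits Il23a and Lif most: their ligand intervals reach from -2.52 to 1.81 on the log2 scale.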
